A study of Arabidopsis thaliana with 6 samples.

Results

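Thionins and plant defensins are small, cysteine-rich, secreted peptides that damage the membranes of fungi and bacteria. In Arabidopsis, PDF1.2 is the textbook marker of the defence branch in which jasmonate and ethylene act together, and its promoter is a known target of ethylene response factors (ERFs). THI2.1 is known as a jasmonate-inducible thionin of flowers and seedlings. The genes described here are the 3 thionin genes THI2.1 (AT1G72260), THI2.2 (AT5G36910) and AT1G66100, and the 2 defensin genes PDF1.2 (AT5G44420) and PDF1.2b (AT2G26020). They were picked by name among the 13350 genes that have a probe set annotated to them alone. The rule took the brightest such probe set by mean over the 6 arrays, but each gene has only 1, so the measured level decided nothing. The genes themselves were proposed with earlier results of these arrays known, and their p-values, which come from the fit across all 22746 probe sets, are therefore descriptions.

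The arrays measured RNA of whole, untreated Arabidopsis thaliana Col-0 seedlings aged 7 days, with 2 biological replicates in each of 3 groups. The 35:SUB1A seedlings express FLAG-tagged SUB1A and the 35:SUB1C seedlings FLAG-tagged SUB1C, both rice ERF transcription factors driven in most tissues by the constitutive 35S promoter, and the WT seedlings are untransformed. All groups were stratified for 3 days at 4 °C. They grew on agar with 1% sucrose at 23 °C in 16 h of light and 8 h of dark. No empty-vector line is listed. The labels do not say how many independent lines stand behind each transgene, so a transgene's effect and other differences between the lines cannot be told apart, and the p-values cover only the spread between these arrays. The rice transgenes were not analysed here.

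Values are log2 RMA expression. Each change is the mean of the first-named group minus that of the second, ± its standard error (SE) in limma, and "rose" and "fell" mean an adjusted p under 0.05. The number of arrays, 2 a group, limits precision. The arrays of a group correlated at 0.998 to 0.999 over probe sets (not independent points), and array medians lay between 7.60 and 7.63. In whole seedlings, fewer cells expressing a gene and less RNA per cell cannot be told apart. Of the tissue markers, 1 of 12 shoot genes and 3 of 8 root genes had a probe set of their own. The shoot gene LHCB4.2, of the light-harvesting antenna, lay between 13.86 and 14.33, and the root gene PYK10, a beta-glucosidase of root endoplasmic reticulum bodies, between 14.05 and 14.20. Flower and seed markers were not analysed here.

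In the 35:SUB1A line, both brightly measured thionins fell, THI2.2 by 5.56-fold and AT1G66100 by 5.80-fold against WT, and neither was called in the 35:SUB1C line. Of all probe sets, 20.2% were called in 35:SUB1A against WT, 4.71% in 35:SUB1C against WT and 12.1% between the lines. THI2.2 measured 9.35 and 9.69 on the 35:SUB1A arrays, 12.20 and 12.21 on the 35:SUB1C arrays, and 12.14 and 11.85 on the WT arrays. AT1G66100 measured 9.04 and 9.21 on the 35:SUB1A arrays, 11.72 and 11.71 on the 35:SUB1C arrays, and 11.76 and 11.56 on the WT arrays. For both genes the 35:SUB1A arrays were far below all the others, and the 35:SUB1C and WT arrays lay close together.

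THI2.2 averaged 9.52 ± 0.24 in 35:SUB1A seedlings and 11.996 ± 0.202 in WT seedlings (SD, n = 2 each), a change of -2.48 ± 0.12 with a 95% interval of -2.76 to -2.20. AT1G66100 averaged 9.12 ± 0.12 in 35:SUB1A and 11.66 ± 0.14 in WT seedlings (SD, n = 2 each), a change of -2.54 ± 0.09 with an interval of -2.73 to -2.34. The intervals are 4.58-fold to 6.76-fold lower for THI2.2 and 5.06-fold to 6.65-fold lower for AT1G66100. Their limma adjusted p was 1.16e-05 for THI2.2 and 2.13e-06 for AT1G66100. Counted from the largest fall among the 22746 probe sets, AT1G66100 came at place 2 and THI2.2 at place 3, which describes how these genes came to notice. The distance from the higher 35:SUB1A array to the lower WT array was 2.17 for THI2.2 and 2.35 for AT1G66100. The 2 arrays of a group differed by at most 0.33 in either gene.

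**Figure D1:**
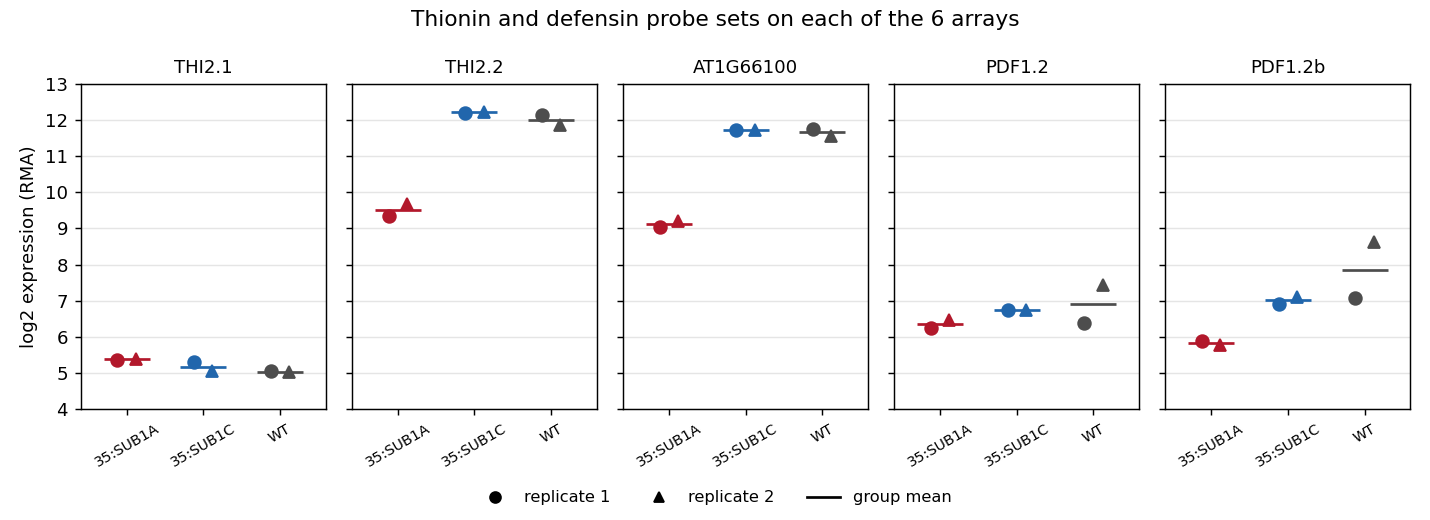
Log2 RMA expression (vertical axis) of the 5 genes on each array, with 35:SUB1A in red, 35:SUB1C in blue and WT in grey. Circles are replicate 1, triangles replicate 2 and bars group means (n = 2). THI2.2 and AT1G66100 sit near 9 on the 35:SUB1A arrays and near 12 on the others, and the WT arrays of PDF1.2 and PDF1.2b lie far apart.

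Against WT, the 35:SUB1C line showed no called change in either gene. THI2.2 averaged 12.20 ± 0.01 in 35:SUB1C seedlings and 11.996 ± 0.202 in WT seedlings (SD, n = 2 each), a difference of 0.21 ± 0.12 with an interval of -0.07 to 0.49 and adjusted p = 0.384. AT1G66100 differed by 0.06 ± 0.09, with an interval of -0.14 to 0.26 and adjusted p = 0.762. Both intervals lie far from the size of the 35:SUB1A change. The direct comparison of the lines tested that difference, and it gave -2.69 ± 0.12 for THI2.2 with adjusted p = 1.32e-05 and -2.59 ± 0.09 for AT1G66100 with adjusted p = 1.76e-06. The order of levels was thus 35:SUB1A lowest, with 35:SUB1C and WT not told apart by the test. Leaving out any 1 array moved the 35:SUB1A minus WT change only between -2.64 and -2.31 for THI2.2 and between -2.63 and -2.44 for AT1G66100.

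THI2.1, the jasmonate-inducible thionin, did not share this pattern. It measured 5.37 and 5.40 on the 35:SUB1A arrays, 5.30 and 5.05 on the 35:SUB1C arrays, and 5.05 and 5.03 on the WT arrays. These values lie just above 5, the level below which probe sets were treated as dim, while the lowest values on the arrays were 3.76 to 3.85. The 35:SUB1A arrays were above the WT arrays, and the 35:SUB1C arrays spanned most of the distance between them.

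THI2.1 was higher in 35:SUB1A than in WT seedlings by 0.34 ± 0.08, or 1.27-fold, with an interval of 0.15 to 0.53 and adjusted p = 0.0228. That call ended without any 1 of the 35:SUB1A or WT arrays, at adjusted p of 0.0818 without 35:SUB1A replicate 1, 0.0967 without 35:SUB1A replicate 2, 0.0837 without WT replicate 1 and 0.0837 without WT replicate 2, while its size stayed between 0.33 and 0.36. In 35:SUB1C against WT the difference was 0.13 ± 0.08 with adjusted p = 0.423. Between the lines it was 0.21 ± 0.08 with adjusted p = 0.161, so the levels ran from 35:SUB1A down to 35:SUB1C and WT, with neither neighbouring step past the threshold.

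The defensin probe sets had their lowest group means in 35:SUB1A seedlings too, but the WT arrays disagreed. PDF1.2b measured 5.87 and 5.77 on the 35:SUB1A arrays, 6.91 and 7.11 on the 35:SUB1C arrays, and 7.08 and 8.63 on the WT arrays. PDF1.2 measured 6.24 and 6.47 on the 35:SUB1A arrays, 6.73 and 6.74 on the 35:SUB1C arrays, and 6.38 and 7.43 on the WT arrays. In both genes WT replicate 2 was the highest of the 6 arrays. WT replicate 1 lay within the range of the 35:SUB1C arrays for PDF1.2b and within the range of the 35:SUB1A arrays for PDF1.2.

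The PDF1.2b probe set is of the _x_at type, some of whose probes also match other transcripts. In the RefSeq gene order PDF1.2b lies beside PDF1.3 on chromosome 2 and PDF1.2 beside PDF1.2c on chromosome 5, all defensin genes of closely similar sequence. Signal of these copies cannot be told apart in the PDF1.2b values, and PDF1.3 and PDF1.2c were not analysed here.

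PDF1.2b averaged 5.82 ± 0.07 in 35:SUB1A seedlings and 7.85 ± 1.09 in WT seedlings (SD, n = 2 each). The change was -2.03 ± 0.39, with a wide interval of -2.91 to -1.15 and adjusted p = 0.00740. Its size depended on the WT array, at -2.80 without WT replicate 1 and -1.26 without WT replicate 2, and robust moderation of the variances ended the call at adjusted p = 0.0641. PDF1.2 averaged 6.35 ± 0.16 in 35:SUB1A and 6.91 ± 0.74 in WT seedlings (SD, n = 2 each), a difference of -0.56 ± 0.27 that did not pass at adjusted p = 0.194. Leaving out WT replicate 1 gave -1.08 (adjusted p = 0.00185), and leaving out WT replicate 2 gave -0.03 (adjusted p = 0.880).

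The 35:SUB1C line gave no called defensin change against WT with all arrays. PDF1.2b averaged 7.01 ± 0.14 in 35:SUB1C seedlings and 7.85 ± 1.09 in WT seedlings (SD, n = 2 each), a difference of -0.84 ± 0.39 with an interval of -1.73 to 0.04 and adjusted p = 0.264. PDF1.2 differed by -0.17 ± 0.27 with an interval of -0.79 to 0.44 and adjusted p = 0.780. Without WT replicate 1 both passed, PDF1.2b at -1.62 with adjusted p = 0.00480 and PDF1.2 at -0.70 with adjusted p = 0.0239. Without WT replicate 2 they were -0.07 and 0.35, the second with its sign turned, and neither passed.

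The comparison of 35:SUB1A with 35:SUB1C does not use the WT means, yet the fit on all arrays takes its spread partly from the WT arrays. PDF1.2b was -1.19 ± 0.39 in 35:SUB1A minus 35:SUB1C with adjusted p = 0.0874, and PDF1.2 was -0.38 ± 0.27 with adjusted p = 0.423. With only the arrays of these 2 lines in the fit, the differences were the same in size and passed, at adjusted p = 0.000448 for PDF1.2b and 0.0305 for PDF1.2. That fit was 1 of 9 alternatives other than leaving out arrays, of which 8 left PDF1.2 and 7 left PDF1.2b without a call. The 35:SUB1A arrays lay below both 35:SUB1C arrays in each gene. With all 6 arrays in the fit, the group means of both genes ran from 35:SUB1A through 35:SUB1C up to WT, with no neighbouring step past the threshold. Single arrays did not keep this order. WT replicate 1 lay below both 35:SUB1C arrays in PDF1.2 and below 35:SUB1C replicate 2 in PDF1.2b.

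**Figure D2:**
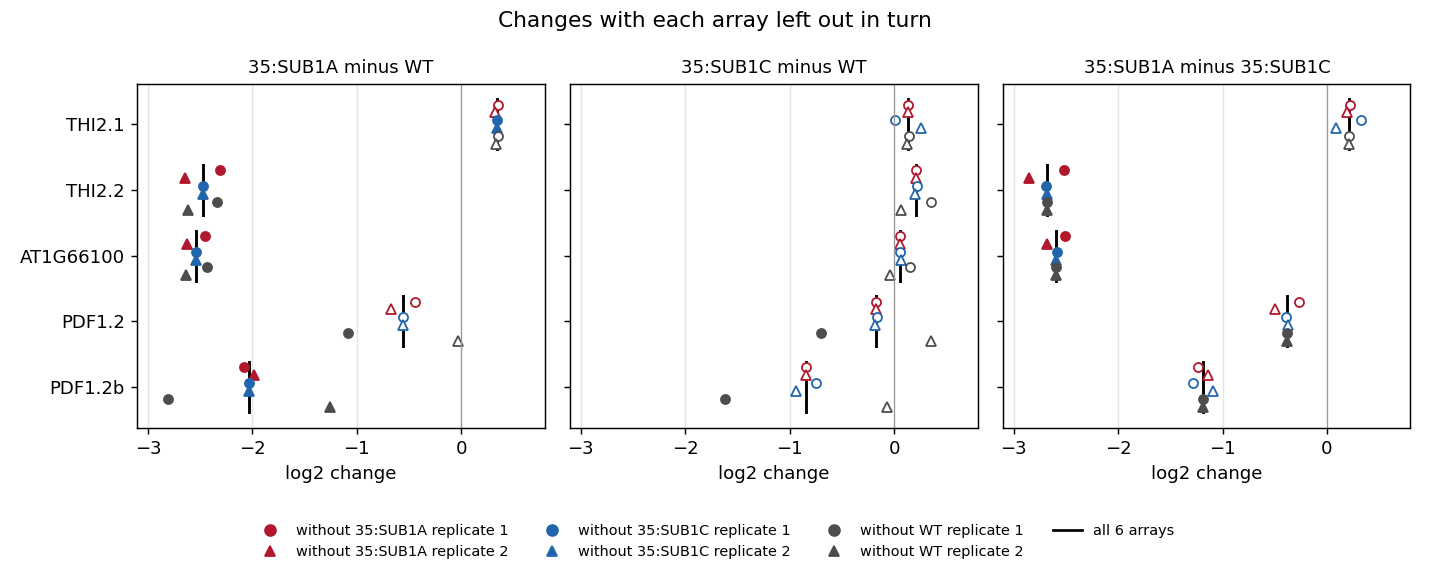
Log2 change (horizontal axis) of each gene with 1 array left out in turn, coloured by the group of the array left out, beside a black bar for all 6 arrays. Filled symbols passed an adjusted p of 0.05. The thionins THI2.2 and AT1G66100 keep their place, while PDF1.2b against WT moves between -2.80 and -1.26 in 35:SUB1A and between -1.62 and -0.07 in 35:SUB1C as the WT arrays are left out.

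The difference between the WT arrays was large for the defensins against the array pair as a whole. WT replicate 2 exceeded WT replicate 1 by 1.55 in PDF1.2b and by 1.05 in PDF1.2. No other probe set among the 22746 differed as much between the WT arrays as PDF1.2b, and PDF1.2 came at place 8 by size. The median difference in size was 0.08, 95% of probe sets differed by less than 0.28, and 11 differed by at least 1. The thionins went the other way or stayed level, with WT replicate 2 minus WT replicate 1 at -0.29 for THI2.2, -0.20 for AT1G66100 and -0.02 for THI2.1. Within the transgenic lines the defensin pairs lay closer, at 0.23 for PDF1.2 and -0.10 for PDF1.2b in 35:SUB1A and at 0.01 and 0.19 in 35:SUB1C. Nothing in the labels separates the WT arrays, and the source of their difference was not tested.

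**Figure D3:**
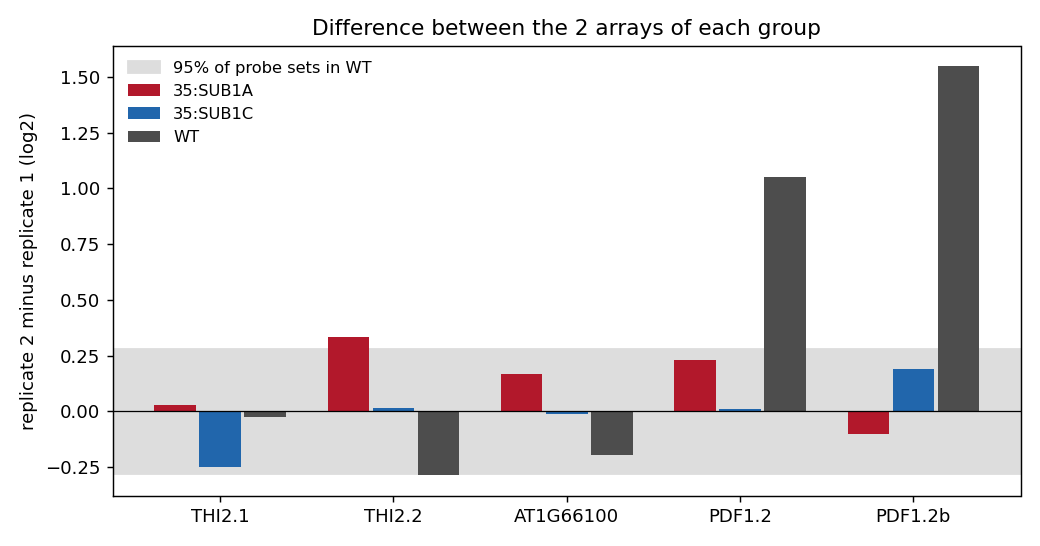
Replicate 2 minus replicate 1 in log2 units (vertical axis) for each gene in 35:SUB1A (red), 35:SUB1C (blue) and WT (grey). The shaded band holds 95% of all probe sets in WT, up to 0.28 in size. The WT bars of PDF1.2 and PDF1.2b reach 1.05 and 1.55.

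Of the 5 genes, 1 rose and 3 fell in 35:SUB1A against WT, where 20.2% of all probe sets were called, 9.47% higher and 10.8% lower. None of the 5 was called in 35:SUB1C against WT in limma, where 4.71% of all probe sets were called (2.84% higher and 1.87% lower), 1071 in number, and 4681 had an unadjusted p under 0.05. No member had an unadjusted p under 0.05 there, and PDF1.2b came nearest at 0.0589. Between the lines 2 of 5 were lower in 35:SUB1A and 0 higher, against 12.1% of all probe sets called, 5.57% higher and 6.48% lower. Array by array, 1 gene (THI2.1) lay above and 3 lay below WT on both 35:SUB1A arrays, and such a separation occurred in 59.2% of all probe sets, 30.6% above and 28.6% below. For 35:SUB1C against WT it occurred in 1 gene (THI2.2, above) and in 51.2% of all probe sets, 24.5% above and 26.7% below. Between the lines all 5 genes separated, 1 above and 4 below in 35:SUB1A, against 57.9% of all probe sets, 30.7% above and 27.2% below. Separation of arrays was thus common among all probe sets. The median change of the 5 genes was -2.03 in 35:SUB1A minus WT, 0.06 in 35:SUB1C minus WT and -1.19 between the lines. The first and last of these are the changes of PDF1.2b itself, and the first depended on the WT array. Medians over all probe sets were 0.01, -0.00 and 0.01. The genes were proposed with earlier results of these arrays known, so the distance between these medians is a description and no test. The 2 comparisons with WT share the WT arrays.

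Of 17 further thionin and defensin genes listed, 10 had a probe set of their own. In 35:SUB1A against WT 1 rose and 2 fell, where 20.2% of all probe sets were called. In 35:SUB1C against WT 0 rose and 1 fell, where 4.71% of all were called, and between the lines 1 was lower in 35:SUB1A, where 12.1% were called. Their medians were 0.03, -0.03 and 0.06 in these comparisons, and their changes in 35:SUB1A minus WT ranged from -0.36 to 0.93. In 4 of the 10 (PDF1.1, PDF2.4, PDF2.6 and PDF3.1) every group mean was under 5, so small changes could not be seen.

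PDF2.1, a defensin gene that lies in a run of PDF2 genes on chromosome 2, was the only related gene called in both lines against WT. It measured 7.79 and 7.78 in 35:SUB1A, 7.85 and 7.56 in 35:SUB1C, and 8.12 and 8.17 in WT seedlings. All arrays of both lines lay below the WT arrays, with changes of -0.36 ± 0.09 in 35:SUB1A (adjusted p = 0.0254) and -0.44 ± 0.09 in 35:SUB1C (adjusted p = 0.0349). Leaving out either WT array or either array of the line ended the 35:SUB1A call, at adjusted p up to 0.100. The 35:SUB1C call ended at adjusted p of 0.0552 to 0.141 without either WT array, either 35:SUB1A array or 35:SUB1C replicate 2, and at 0.0552 with only the 2 groups in the fit.

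PDF2.2 and PDF2.3, in the same run, gave bright and nearly level signal. PDF2.2 measured 13.30 and 13.34 in 35:SUB1A seedlings, 13.39 and 13.35 in 35:SUB1C seedlings, and 13.55 and 13.58 in WT seedlings. It fell by 0.25 ± 0.06 in 35:SUB1A (adjusted p = 0.0228), a call that ended without any 1 of the 35:SUB1A or WT arrays at adjusted p up to 0.119, and it changed by -0.20 ± 0.06 in 35:SUB1C without passing. PDF2.3 differed by 0.10 ± 0.06 in 35:SUB1A and by 0.10 ± 0.06 in 35:SUB1C, with adjusted p = 0.318 and 0.412.

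PDF2.5 was the only related gene called between the lines. It measured 6.30 and 6.51 in 35:SUB1A seedlings, against 7.00 and 6.82 in 35:SUB1C seedlings, and the WT arrays at 6.54 and 6.66 lay between them. Its difference between the lines was -0.50 ± 0.09 with adjusted p = 0.0101, which became 0.0669 without 35:SUB1A replicate 1 and 0.0884 without 35:SUB1C replicate 1. Neither line differed from WT past the threshold, at -0.19 ± 0.09 in 35:SUB1A and 0.31 ± 0.09 in 35:SUB1C.

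PDF1.4 repeated the disagreement of the WT arrays. It measured 7.78 and 8.09 in 35:SUB1A, 8.01 and 7.70 in 35:SUB1C, and 6.29 and 7.72 in WT seedlings, so that WT replicate 1 was the array that stood apart. Its change was 0.93 ± 0.37 in 35:SUB1A and 0.85 ± 0.37 in 35:SUB1C, with adjusted p = 0.121 and 0.243. Without WT replicate 2 these became 1.64 (adjusted p = 0.00139) and 1.56 (adjusted p = 0.0118), and without WT replicate 1 they were 0.21 and 0.13.

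AT2G15010, a gene of the thionin family, measured 5.66 and 5.93 in 35:SUB1A, 5.81 and 5.54 in 35:SUB1C, and 5.39 and 5.41 in WT seedlings. All arrays of the lines lay above WT, by 0.40 ± 0.11 in 35:SUB1A (adjusted p = 0.0379) and by 0.27 ± 0.11 in 35:SUB1C (adjusted p = 0.209). The 35:SUB1A call ended without either WT array, without 35:SUB1A replicate 2, with a replicate block, with renewed quantile normalization and with array weights, at adjusted p of 0.0513 to 0.194. LCR24 and LCR59, further cysteine-rich peptide genes added after seeing the annotation, stayed under 5 in every group and did not pass in any comparison.

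**Figure D4:**
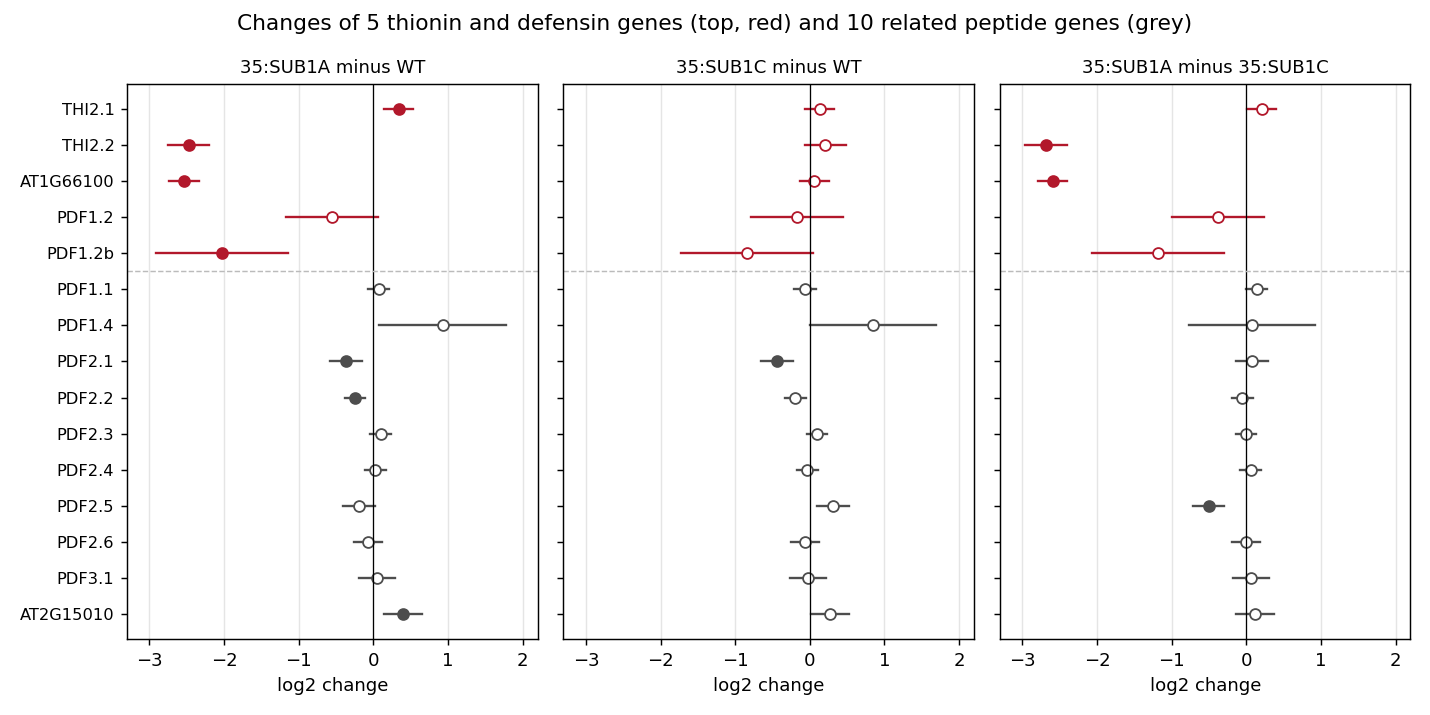
Log2 changes (horizontal axis) with 95% intervals from the limma fit for the 5 thionin and defensin genes (red, above the dashed line) and 10 related peptide genes (grey). Filled circles passed an adjusted p of 0.05. THI2.2 and AT1G66100 lie near -2.5 in both comparisons of 35:SUB1A and near 0 in 35:SUB1C minus WT, and the changes of the related genes lie between -0.50 and 0.93.

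The genes whose values over the 6 arrays were most like those of a member were found among 166 genes whose group means span at least 1. The arrays form 3 groups, so these correlations partly follow the group means and are descriptions. Those of PDF1.2 also follow the difference of 1.05 between its WT arrays, which is larger than the differences between its group means. THI2.2 and AT1G66100 were each other's nearest, at r = 0.998 (n = 6 arrays). Next for both came AT4G14060, at r = 0.997 with THI2.2 and 0.993 with AT1G66100, and AT1G69160, at 0.990 and 0.997. AT4G14060 measured 5.05 and 5.25 in 35:SUB1A, 7.22 and 7.28 in 35:SUB1C, and 6.99 and 6.93 in WT seedlings, and AT1G69160 averaged 7.39, 8.52 and 8.60 in these groups. Both were thus low in 35:SUB1A seedlings and close together in the others.

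PDF1.2b was the nearest gene to PDF1.2, at r = 0.887, followed by AT4G12500 at 0.697 and AT3G46490 at 0.691. The _x_at probe set of PDF1.2b may also take up PDF1.2 signal, and the part of this in their likeness was not tested. For PDF1.2b the nearest were AT4G12500 at r = 0.941, AT3G46490 at 0.934 and AT3G16670 at 0.917. AT4G12500, a lipid transfer protein family gene, measured 8.88 and 8.79 in 35:SUB1A, 9.99 and 10.18 in 35:SUB1C, and 10.71 and 11.15 in WT seedlings. In it the 3 groups did not overlap, and its differences from WT passed in both lines, at -2.10 ± 0.13 in 35:SUB1A (adjusted p = 3.99e-05) and -0.85 ± 0.13 in 35:SUB1C (adjusted p = 0.0117).

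For THI2.1 the nearest genes were AT3G01570, of the oleosin family, at r = 0.970, AT1G04560 at 0.958 and ICL, which encodes isocitrate lyase of the glyoxylate cycle, at 0.947. ICL measured 8.29 and 8.52 in 35:SUB1A, 7.48 and 7.04 in 35:SUB1C, and 6.32 and 6.38 in WT seedlings. AT3G01570 averaged 6.85, 5.98 and 5.79 in the same order. Each of these 3 genes was higher in 35:SUB1C replicate 1 than in 35:SUB1C replicate 2, as THI2.1 was. Their choice by correlation with THI2.1 favours such a likeness. Of the 3, only ICL passed in 35:SUB1C against WT, at 0.91 ± 0.14 (adjusted p = 0.00990), where THI2.1 did not.

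Few genes of the hormone pathways that act on these peptides had a probe set of their own. Of 35 jasmonate genes 4 were measured. In 35:SUB1A against WT 1 rose and 1 fell, where 20.2% of all probe sets were called. In 35:SUB1C against WT 0 were called, where 4.71% of all were called. OPCL1, a ligase of jasmonate synthesis, measured 9.20 and 9.34 in 35:SUB1A seedlings, against 8.89 and 8.95 in WT seedlings, a rise of 0.35 ± 0.08 (adjusted p = 0.0164). MYC4, a transcription factor of jasmonate responses, measured 7.56 and 7.66 in 35:SUB1A, against 8.02 and 7.96 in WT seedlings, a fall of -0.39 ± 0.08 (adjusted p = 0.0115). Its relative MYC3 differed by -0.04 ± 0.07, and JMT, which methylates jasmonate, by 0.35 ± 0.16 with adjusted p = 0.177.

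EIN3, the central transcription factor of ethylene signalling and the only 1 of 16 ethylene genes measured, differed by 0.00 ± 0.06 in 35:SUB1A and -0.06 ± 0.06 in 35:SUB1C. The 9 genes listed for the joint ethylene and jasmonate branch, ORA59 and ERF1 among them, were not analysed here. Of 12 salicylate genes 2 were measured. GRX480, a glutaredoxin known to repress PDF1.2 when overexpressed, measured 7.13 and 7.22 in 35:SUB1A, 6.74 and 6.75 in 35:SUB1C, and 6.58 and 6.56 in WT seedlings. It rose by 0.61 ± 0.06 in 35:SUB1A (adjusted p = 0.000400) and differed by 0.17 ± 0.06 in 35:SUB1C (adjusted p = 0.163). SAG101, a partner of the immune regulator EDS1, differed by 0.19 ± 0.09 in 35:SUB1A without passing, and was higher in 35:SUB1A than in 35:SUB1C by 0.34 ± 0.09 (adjusted p = 0.0426).

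Other secreted defence genes did not all follow the thionins. Of 18 listed 3 were measured, and in each comparison with WT 1 rose and 1 fell. The shares called over all probe sets were 20.2% in 35:SUB1A and 4.71% in 35:SUB1C. The chitinase family gene AT2G43590 rose by 1.41 ± 0.07 in 35:SUB1A and by 1.28 ± 0.07 in 35:SUB1C, while AT4G12500 fell in both. AT4G12490, of the same family as AT4G12500, measured 11.50 and 11.38 in 35:SUB1A, 11.54 and 11.54 in 35:SUB1C, and 11.34 and 12.33 in WT seedlings, and it changed by -0.40 ± 0.25 and -0.30 ± 0.25 without passing. Here too WT replicate 2 was the highest array.

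Among the tissue markers, LHCB4.2 fell by 0.35 ± 0.07 in 35:SUB1A (adjusted p = 0.0112) and differed by -0.14 ± 0.07 in 35:SUB1C. EXPA7 and EXPA18, expansin genes of root hairs, rose in 35:SUB1A by 0.29 ± 0.08 each and in 35:SUB1C by 0.78 ± 0.08 and 0.75 ± 0.08. The mean log2 level of the 3 root markers was 9.91 and 9.93 in 35:SUB1A, 10.27 and 10.18 in 35:SUB1C, and 9.73 and 9.64 in WT seedlings. Their part in the thionin and defensin values was not tested. The reference genes PEX4 and TIP41L (AT4G34270) differed by -0.06 ± 0.07 and 0.16 ± 0.06 in 35:SUB1A and by 0.08 ± 0.07 and -0.01 ± 0.06 in 35:SUB1C, and neither passed.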

How the data were processed

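Expression was measured on 6 Affymetrix ATH1 arrays, and the authors deposited 1 log2 value for each probe set and array. RMA is the tool named in the submitters' processing notes. RMA corrects background, quantile-normalizes the arrays and summarizes the probes of each set, so large differences can be compressed and differences in total RNA between groups are not retained. Its version is not stated there, and the table has no detection calls.

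Groups were taken from the sample titles. The limma package (version 3.58.1, R 4.3.3) fitted a group mean for each probe set over all 6 arrays with no covariate, and eBayes added 5.37 prior to 3 residual degrees of freedom. Two-sided p-values were adjusted by Benjamini-Hochberg over the 22746 probe sets left without 64 controls, and an adjusted p under 0.05 was called. The fit was tested on simulated data. Of the tested probe sets 13513 list 1 gene, 503 several and 8730 none in the platform annotation. Loci were assigned through RefSeq's gene table (TAIR10.1 assembly), which matched 13436 of the single-gene probe sets. The annotation names PDF1.1, PDF2.2, PDF2.3, PDF2.4, PDF2.6 and PDF3.1 as LCR67, LCR69, LCR68, LCR66, LCR72 and LCR80, in this order.

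The members and gene lists were chosen with earlier results of these data known. All members and measured related peptides are named, and up to 4 genes of the other lists. The 3 genes most like each member are those with the highest Pearson correlation over the 6 arrays, among single-gene probe sets whose group means span at least 1 on the log2 scale. Deviations of same-numbered arrays from their group means had correlations of -0.01, 0.04 and 0.02 between groups, so replicate numbers were not treated as pairs. Alternatives were a replicate block, other groups in the fit, normalization, filters, moderation, array weights and leaving out each array. Averaging a gene's probe sets was not run, since each member has 1.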

Additional observations from a re-analysis of the deposited data

How the results depend on the processing

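With 2 arrays a group, on RMA values without detection calls, small changes of dim genes could not be resolved. Outside the leaving out of arrays, 131 of 135 member values and 251 of 258 values of related genes kept their direction and side of the threshold. Only renewed quantile normalization and median centring altered the log2 changes themselves. Under the other settings the direction could not turn, and only the side of the threshold was open. The exceptions among members were the PDF1.2b call in 35:SUB1A lost under robust moderation, and the calls of PDF1.2 and PDF1.2b gained between the lines with only the 2 groups compared, which gave 4 member calls in place of 2, and of PDF1.2b with array weights. Renewed quantile normalization turned the sign of PDF2.4 in 35:SUB1A minus WT (-0.0014) and of PDF2.3 between the lines (0.0020), both near 0. With single-gene probe sets only, fewer were tested, and 2318 were called in 35:SUB1A minus WT, 588 in 35:SUB1C minus WT and 1304 between the lines. The replicate block gave 4473, 1025 and 2625 called probe sets in these comparisons and 4, 0 and 2 called members, and of the members and related genes it ended only the AT2G15010 call. Replicate numbers were shared in name only.

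Leaving out each array gave 2701 to 3961 called probe sets in 35:SUB1A minus WT, 191 to 882 in 35:SUB1C minus WT and 1078 to 3026 between the lines, against 4606, 1071 and 2742 with all arrays. The lowest count came without 35:SUB1A replicate 1 in the first and without 35:SUB1C replicate 1 in the others, and the remaining degrees of freedom are fewer. Member calls ranged from 3 to 4, 0 to 2 and 2 to 4. A group left with 1 array is assumed to vary like the others. Signs turned in the following ranges, in which no turned value passed the threshold, and the cause was not tested. In 35:SUB1A minus WT PDF2.4 ranged from -0.023 to 0.072, PDF2.6 from -0.18 to 0.033 and PDF3.1 from -0.080 to 0.17. In 35:SUB1C minus WT AT1G66100 ranged from -0.039 to 0.16, PDF1.2 from -0.70 to 0.35, PDF2.4 from -0.080 to 0.015, PDF2.6 from -0.17 to 0.040 and PDF3.1 from -0.15 to 0.099. Between the lines PDF1.4 ranged from -0.080 to 0.24, PDF2.1 from -0.065 to 0.22, PDF2.3 from -0.034 to 0.030, PDF2.6 from -0.061 to 0.046, PDF3.1 from -0.023 to 0.16 and AT2G15010 from -0.016 to 0.26.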

Other observations

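After PDF1.2b, the single-gene probe sets that exceeded most in WT replicate 2 over WT replicate 1 were PDF1.4 by 1.43, AT4G22470 by 1.27, the peroxidase family gene AT5G39580 by 1.25, PDF1.2 by 1.05 and AT2G17740 by 1.04. AT5G39580 measured 8.90 and 8.74 in 35:SUB1A, 8.40 and 8.47 in 35:SUB1C, and 7.53 and 8.78 in WT seedlings, and the chitinase family gene AT2G43620 measured 10.65 and 10.75 in 35:SUB1A, 10.35 and 10.48 in 35:SUB1C, and 9.77 and 10.76 in WT seedlings. In both, WT replicate 1 was the low array, while in PDF1.2b and PDF1.2 WT replicate 2 was the high array. These genes were chosen after their values were seen, and the difference was not tested.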
